A study of Mus musculus with 6 samples.

Results

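The genes described here are 10 components of microtubule-organizing centers and spindle poles: *Fgfr1op*, *Tacc3*, *Ckap5*, *Pcnt*, *Cep192*, *Cdk5rap2*, *Nedd1*, *Numa1*, *Tubg1* and *Haus6*. They were chosen by symbol from the 53465 Ensembl genes of the count table, and all 10 were found. *Fgfr1op* was chosen because each quercetin pool lay above each control pool, and the other 9 were set beside it for their place at the pole. The difference in *Fgfr1op* is therefore given as a description, with no test.

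RNA sequencing compared 3 pools of M II oocytes matured in vitro without quercetin and 3 pools matured with 10 μM quercetin, to ask how this flavonol alters gene expression in aged oocytes. All pools came from female Kunming (KM) mice of 9 to 10 months, an outbred stock, and each combined 15 oocytes of 3 mice after 16 h of culture. The labels number the pools 1 to 3 in each group, and nothing in them says whether pools came from separate cultures. Total counts on genes ran from 7880467 to 9938743 per pool. Values are in CPM, counts scaled to a common library size with TMM factors, and 3 counts, the least taken to show a gene, equal 0.302 to 0.381 CPM by unscaled library size. In pooled oocytes, fewer oocytes with a transcript and less of it per oocyte cannot be told apart.

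The mouse oocyte builds its meiotic spindle without centrioles. Its poles form from acentriolar microtubule-organizing centers, in which the scaffold proteins pericentrin (*Pcnt*), CEP192 and CDK5RAP2 gather the γ-tubulin ring complex, the template for new microtubules. NEDD1 docks this complex, augmin (subunit *Haus6*) places it on existing microtubules, TACC3 and the polymerase ch-TOG (*Ckap5*) promote microtubule growth, and NUMA1 focuses the ends with dynein. FOP, the product of *Fgfr1op*, is known from centrosomes and centriolar satellites of somatic cells, where it binds CEP350 and takes part in forming cilia.

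Library construction used the Smart-seq HT Kit, whose first step copies polyadenylated RNA, so a level here is one of transcripts with a poly(A) tail. Maturing oocytes lengthen or shorten the tails of stored transcripts, and the cytoplasmic polyadenylation element (CPE) near the 3′ end takes part in this. For this reason the ends of 4 transcripts are given here, from GENCODE release M21 on GRCm38. Each run is 28 bases of the 3′ UTR in the last exon, written 5′ to 3′ on the strand of the gene, and ends 2 bases after the last polyadenylation hexamer. Capitals mark the hexamer (AATAAA or ATTAAA) and any CPE (TTTTAT or TTTTAAT).
*Fgfr1op* (chr17:8196429-8196456, plus strand): aatgtctctttgaacagtggATTAAAat
*Tacc3* (chr5:33678938-33678965, plus strand): gcagagctgggtagccctgtAATAAAga
*Ckap5* (chr2:91620624-91620651, plus strand): taatttaagagacTTTTATaAATAAAgt
*Pcnt* (chr10:76351278-76351305, minus strand): ttctTTTTATtggcaaaacaAATAAAac

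*Ckap5* and *Pcnt* were the only ones of the 10 with a CPE of these letters in the last 100 bases of the principal transcript, searched on the transcript strand only. Among 9284 tested genes with a 3′ UTR of at least 100 bases, 22% held one. A hexamer lay in this window in all 10, as in 83.2% of those genes. The annotated ends were taken as given, and the ends used in oocytes were not measured.

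All 10 genes had enough reads to be tested, and they covered a wide range of levels (see the plot of CPM by pool). At an adjusted p under 0.05, none of the 9 genes other than *Fgfr1op* differed between the groups (edgeR quasi-likelihood test, Benjamini-Hochberg method over the 11842 genes tested), and their adjusted p-values ran from 0.988 to 0.998. In that comparison 0 of 11842 genes passed, a share of 0%, while DESeq2 and edgeR's likelihood ratio test called 12 and 16 genes with a fold change over 2, and neither called any of these 9. Without adjustment, 1 of the 9 had a p under 0.05, *Nedd1*, which was higher with quercetin. Over all tested genes, 2.14% were higher and 1.89% lower by this measure. Pools of the groups did not overlap for 2 of the 9, *Nedd1* (higher) and *Numa1* (lower), where 5.42% of all tested genes did not overlap on the higher side and 5.17% on the lower. The log2 fold change was below 0 for 5 of the 9, beside 53.6% of all tested genes.

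**Figure D1:**
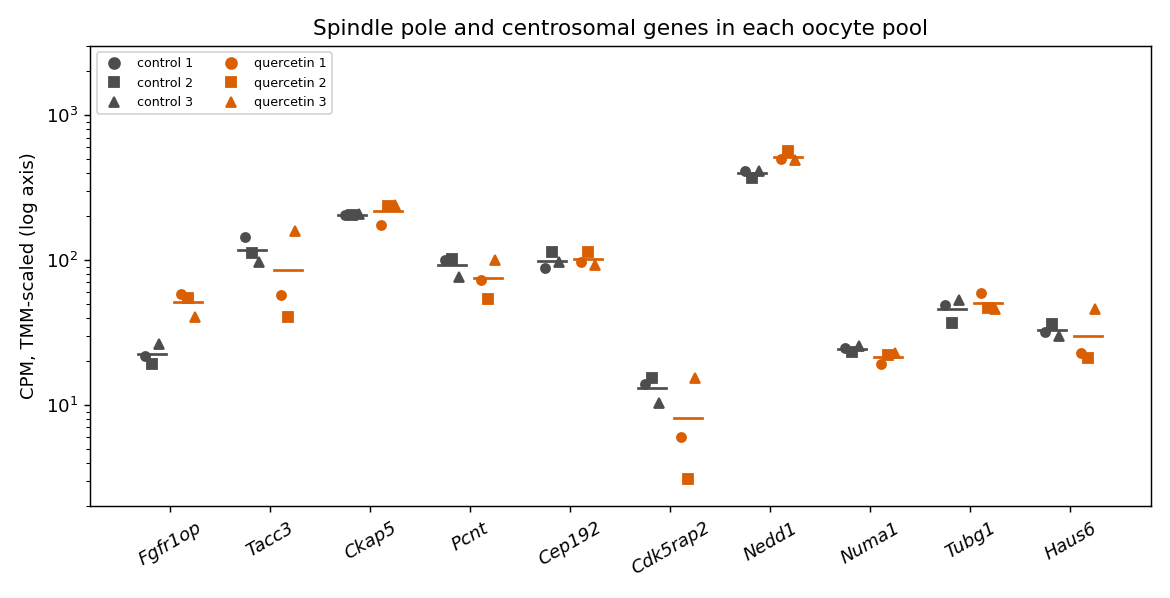
CPM of each gene in each pool, on a log axis, with control pools in gray, quercetin pools in orange, the symbol shape giving the replicate number and bars giving group means (3 pools each). Quercetin pools of *Fgfr1op* sit above the controls, between 40.2 and 58.6 CPM, while those of *Tacc3*, *Cdk5rap2* and *Haus6* are split, with quercetin replicate 3 at the top.

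*Fgfr1op* (ENSMUSG00000069135) lies on chromosome 17 from 8165501 to 8196804, on the plus strand. The control pools held 193, 159 and 234 of its counts, and 468, 496 and 342 came from the pools given quercetin. In CPM these were 21.7, 19.1 and 26.3 against 58.6, 54.4 and 40.2, so the lowest quercetin pool, replicate 3, stood above the highest control pool, replicate 3. The group means were 22.4 ± 3.66 and 51.1 ± 9.62 CPM (SD, n = 3). In the fit its log2 fold change was 1.19, or 2.28-fold. With each pool left out in turn it ran from 1.08 to 1.34, which describes a gene chosen by this contrast and tests nothing.

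The exons of *Fgfr1op* overlap no other annotated gene. Of the 31-base words in its transcripts, 3.79% also occur in another gene, all in *Tagap1*, a gene elsewhere on chromosome 17. *Tagap1* had 55, 46 and 50 counts without quercetin and 42, 59 and 32 with it, fewer than *Fgfr1op* in every pool. Over the other scalings, filters and tests the log2 fold change of *Fgfr1op* ran from 1.10 to 1.21. This too describes a gene chosen by this contrast and tests nothing.

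None of the 7 listed relatives and partners of FOP had an unadjusted p under 0.05. *Fopnl*, which encodes a shorter protein related to FOP, had 68.6 ± 7.84 CPM without and 76.1 ± 12.9 CPM with quercetin (SD, n = 3), a log2 fold change of 0.15 with a standard error of 0.18. *Cep350*, which encodes the centrosomal partner of FOP, had 10.4 ± 1.10 and 7.45 ± 5.79 CPM, a log2 fold change of -0.49 with a standard error of 0.48. *Ofd1*, encoding a protein of centrioles and satellites, had 60.2 ± 1.20 and 52.2 ± 7.70 CPM without overlap of its pools, and *Cep290*, encoding a protein of the ciliary transition zone, had 26.7 ± 4.14 and 21.7 ± 11.2 CPM. *Mapre1*, which encodes the microtubule plus-end protein EB1, had the highest level per exon length of this list, and its log2 fold change was 0.11 with a standard error of 0.15.

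*Nedd1* (ENSMUSG00000019988, chromosome 10 from 92684746 to 92722420, minus strand), which docks the γ-tubulin ring complex, was the most abundant of the 10. The controls were at 411, 371 and 410 CPM and the quercetin pools at 496, 564 and 488 CPM, without overlap. The means were 397.5 ± 23.1 and 516 ± 41.7 CPM (SD, n = 3), and the log2 fold change was 0.38 with a standard error of 0.13. The unadjusted p was 0.0193 and the adjusted p was 0.988 (edgeR quasi-likelihood test, Benjamini-Hochberg method), and a two-sided exact permutation test gave p = 0.1, the smallest that 3 pools against 3 allow. Leaving out each pool in turn kept the log2 fold change between 0.31 and 0.42. Of its 31-base words, 14.3% occur in other annotated genes, chiefly *Gm8675* and *Gm49783*.

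*Tubg1* (ENSMUSG00000035198, chromosome 11 from 101119938 to 101126419, plus strand) encodes γ-tubulin itself. Its pools had 48.7, 36.7 and 53.0 CPM without quercetin and 59.2, 46.3 and 45.5 CPM with it, so the groups overlapped. The log2 fold change of 0.13 had a standard error of 0.20, and leaving out each pool in turn took it from -0.01 to 0.25. Its neighbor *Tubg2*, which encodes the second mouse γ-tubulin, had more counts than *Tubg1* in all pools, at 107 ± 12.0 CPM without and 102 ± 5.37 CPM with quercetin (SD, n = 3).

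Reads of the 2 γ-tubulin genes cannot be fully told apart, because their coding sequences of 1356 bases are 93.3% identical, with a longest shared run of 164 bases. The 60 bases from 768 to 827 of each coding sequence, in exon 8 of 11, are given as an example of how close they are, and capitals mark the 2 bases that differ.
*Tubg1* (chr11:101124497-101124556, plus strand): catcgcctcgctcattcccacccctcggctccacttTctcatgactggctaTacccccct
*Tubg2* (chr11:101160321-101160380, plus strand): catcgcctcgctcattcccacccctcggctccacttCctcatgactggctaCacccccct

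Of the 31-base words of *Tubg1* transcripts, 19.2% occur in other genes, and for *Tubg2* the share is 23.6%. How the authors counted reads that match both genes is not given in the sources used here. The levels of both genes carry this uncertainty.

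*Haus6* (ENSMUSG00000038047, chromosome 4 from 86578855 to 86612055, minus strand), a subunit of augmin, had 31.98, 36.2 and 29.9 CPM in control pools. The quercetin pools had 22.9, 21.1 and 45.8 CPM, so 2 lay below all controls and replicate 3 lay above them. Its log2 fold change was -0.13 with a standard error of 0.30. It was -0.57 without quercetin replicate 3 and turned positive, to 0.03 and 0.07, without quercetin replicate 1 or 2.

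Among the scaffold genes, *Pcnt* (ENSMUSG00000001151, chromosome 10 from 76351263 to 76442786, minus strand) had 99.6, 102 and 76.5 CPM without quercetin and 73.3, 53.6 and 100 CPM with it. Again quercetin replicates 1 and 2 were under every control pool and replicate 3 was within their range. Over all pools the difference on the log2 scale was -0.29 with a standard error of 0.24. It was -0.55 without quercetin replicate 3 and -0.10 without quercetin replicate 2.

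*Cdk5rap2* (ENSMUSG00000039298, chromosome 4 from 70216856 to 70410443, minus strand), which encodes a scaffold protein that activates the γ-tubulin ring complex, was the least abundant of the 10. Controls gave 124, 128 and 91 counts, and quercetin pools gave 48, 28 and 130. These are 13.9, 15.4 and 10.2 CPM against 6.01, 3.07 and 15.3 CPM. Its log2 fold change was -0.70 with a standard error of 0.50 over all pools. It reached -1.54 with a standard error of 0.36 without quercetin replicate 3, and it was -0.30 without quercetin replicate 2.

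*Cep192* (ENSMUSG00000024542, chromosome 18 from 67800107 to 67885170, plus strand), encoding a scaffold protein that recruits Aurora A and Polo-like kinases, showed no such split. Its pools had 87.5, 113 and 96.6 CPM without quercetin and 96.7, 113 and 93.1 CPM with it. The log2 fold change of 0.03 had a standard error of 0.16, and its sign depended on the scaling and on single pools. The groups overlapped over most of their range.

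The pair of microtubule growth factors differed in spread. *Tacc3* (ENSMUSG00000037313, chromosome 5 from 33658128 to 33678995, plus strand) had 144.5, 111 and 96.2 CPM without quercetin and 57.8, 40.7 and 158 CPM with it. Quercetin replicates 1 and 2 lay below every control and replicate 3 above every control, and the log2 fold change was -0.46 with a standard error of 0.44. Without quercetin replicate 3 it was -1.25 with a standard error of 0.24 (adjusted p = 0.183, edgeR quasi-likelihood test with the Benjamini-Hochberg method), and without quercetin replicate 2 it was -0.12. Of its exon length, 8.1% overlaps *Tmem129* on the opposite strand.

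*Ckap5* (ENSMUSG00000040549, chromosome 2 from 91526762 to 91620664, plus strand), encoding ch-TOG, a partner of TACC3, had 204, 204 and 207 CPM in control pools. The quercetin pools had 175, 236 and 238 CPM, one below and the others above all controls. The coefficient of variation was 0.907% among control pools and 16.4% among quercetin pools. Quercetin over control, the log2 ratio was 0.08 with a standard error of 0.15, and by library size only it was -0.003.

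*Numa1* (ENSMUSG00000066306, chromosome 7 from 101934111 to 102014964, plus strand), the pole-focusing factor, had 24.6, 23.1 and 25.4 CPM without quercetin and 19.3, 22.3 and 22.9 CPM with it. The groups did not overlap after TMM scaling, by a narrow gap (p = 0.1 in the same exact permutation test). They overlapped with DESeq2's size factors. The log2 fold change was -0.18 with a standard error of 0.19, an edgeR quasi-likelihood adjusted p of 0.988 after Benjamini-Hochberg adjustment.

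**Figure D2:**
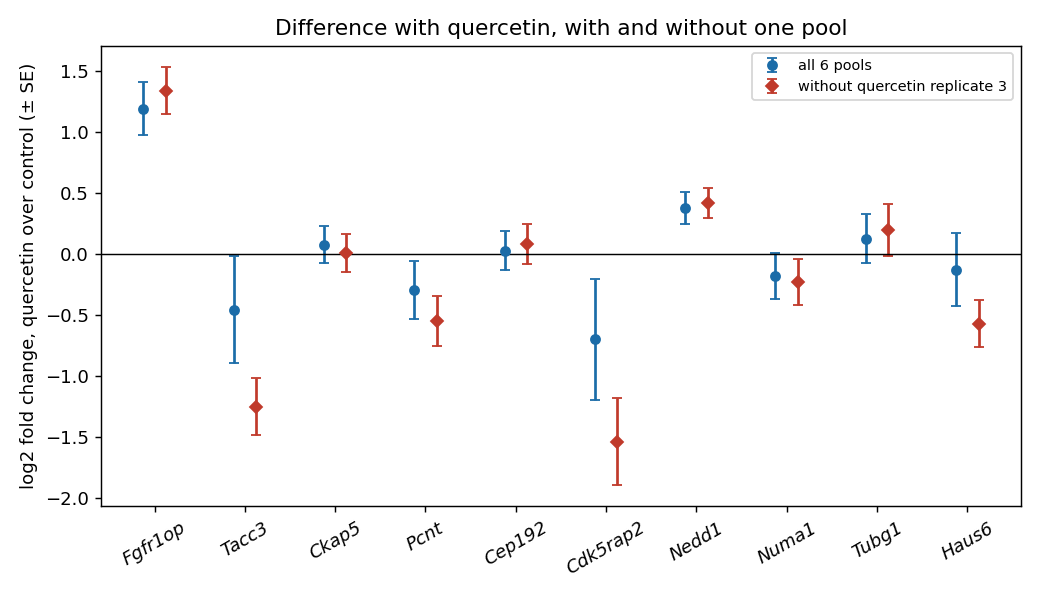
Log2 fold change of each gene, quercetin over control, with standard error bars, from edgeR with all 6 pools (circles) and without quercetin replicate 3 (diamonds), a pool picked after its values were seen. *Tacc3* and *Cdk5rap2* go from -0.46 and -0.70 to -1.25 and -1.54, while *Nedd1* stays between 0.38 and 0.42. *Fgfr1op*, at 1.19 and 1.34, was chosen because all 3 quercetin pools lay above the controls, so its values and bars test nothing.

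Quercetin replicate 3 was the highest of the 3 quercetin pools for 6 of the 9 genes other than *Fgfr1op*, and over all tested genes for 35.9%. It was over 2 times both other quercetin pools for 2 of the 10, *Tacc3* and *Cdk5rap2*, and for 5.4% of all tested genes. Of the 75 other pole and centrosome genes tested, described below, 9 had it over 2 times both, *Cep350* among them. The coefficient of variation among quercetin pools was 74.1% for *Tacc3*, 78.5% for *Cdk5rap2*, 46.0% for *Haus6* and 30.8% for *Pcnt*. In control pools it was 21.1%, 20.1%, 9.76% and 15.2% for the same genes, where the medians over all tested genes were 22.2% in quercetin and 17.8% in control pools. These 4 genes, grouped after their values were seen, followed each other across the 6 pools, with Pearson correlations of log2 CPM between 0.868 and 0.974 for their pairs. The pools share their library and depth between genes, so these correlations are a description.

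With quercetin replicate 3 left out, 6 of the 9 genes did not overlap between groups. This pool was picked after the values were seen. For *Tacc3*, *Pcnt*, *Cdk5rap2* and *Haus6* it alone made the groups overlap, so their lack of overlap here follows from that choice. *Tacc3*, *Pcnt*, *Cdk5rap2*, *Numa1* and *Haus6* were lower and *Nedd1* was higher, and over all genes tested in that fit 17.3% were lower and 14.1% higher without overlap. None of the 9 had an adjusted p under 0.05 in that fit of edgeR's quasi-likelihood test. The split of the quercetin pools was also that of the whole libraries, since on the first principal component, holding 32.4% of the variance, quercetin replicates 1 and 2 were at 37.9 and 30.9, quercetin replicate 3 was at -30.8, and the control pools were at 3.34, -31.3 and -10.1. Quercetin replicate 3 against the mean of the other quercetin pools also moved with gene length, with a median log2 ratio of -0.16 for genes with up to 2 kb of exon and 0.11 for genes over 8 kb. The part of length or of the whole-library split in the values of these genes was not tested.

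Compared per kb of annotated exon, the genes fell into an order that spanned a wide range (see the plot of level per exon length). *Nedd1* was first with 112 ± 17.5 CPM per kb (SD over 6 pools), above all the others in every pool. *Tacc3* (28.5 ± 13.1), *Ckap5* (22.3 ± 2.47) and *Tubg1* (21.3 ± 3.35 CPM per kb) followed, and their ranges over the pools overlapped, so their order among themselves is not fixed. *Fgfr1op* (9.16 ± 4.25), *Cep192* (8.02 ± 0.859) and *Pcnt* (6.93 ± 1.62 CPM per kb) also overlapped. *Fgfr1op* stood above *Cep192* in 3 of the 6 pools, those with quercetin, and below it in the control pools. Its place in this order thus depended on the group difference it was chosen for. *Haus6* (4.85 ± 1.40 CPM per kb) was below *Pcnt* in every pool although their ranges overlapped. The range of *Fgfr1op*, from 4.77 to 14.6 CPM per kb, also overlapped those of *Tacc3*, from 11.5 to 44.5, and *Haus6*, from 3.26 to 7.09. *Numa1* (2.90 ± 0.269) and *Cdk5rap2* (0.819 ± 0.398 CPM per kb) came last, without overlap with their neighbors. With the length of the principal transcript in place of all annotated exons, *Cep192* and *Fgfr1op* changed places and no other pair did.

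**Figure D3:**
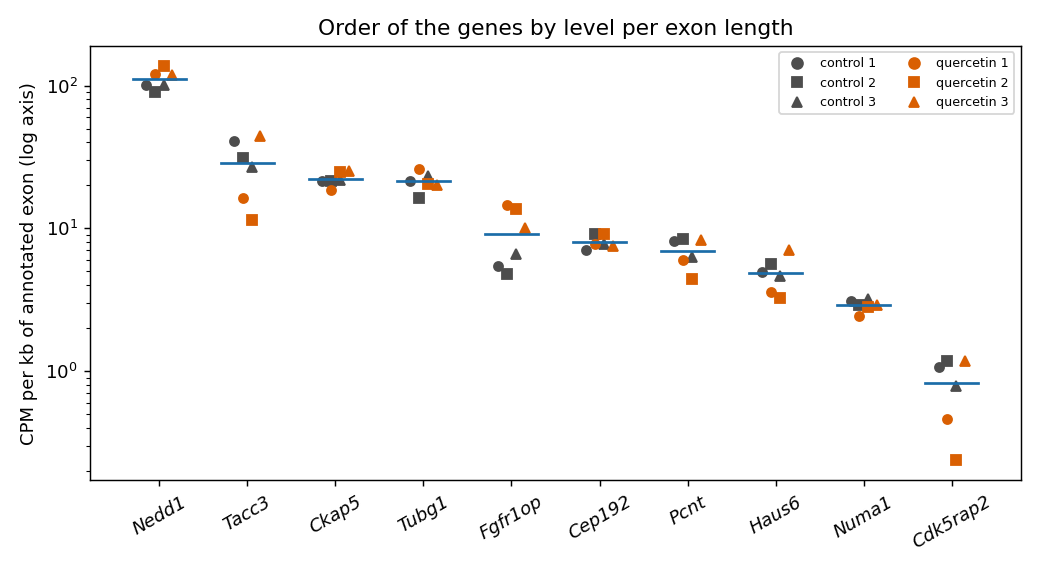
CPM per kb of annotated exon for each gene in each of the 6 pools, on a log axis, ordered by mean (blue bars), with control pools in gray and quercetin pools in orange. *Nedd1* at 112 CPM per kb stands apart from the rest, and *Cdk5rap2* is lowest at 0.819 CPM per kb.

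Other known components of the pole and centrosome were listed by function, 83 genes in 7 lists, of which 75 had enough reads to be tested. None passed an adjusted p under 0.05 in edgeR's quasi-likelihood test, in DESeq2 or in edgeR's likelihood ratio test. Without adjustment 2 were higher and 1 was lower, or 2.67% and 1.33% of those tested, beside 2.14% and 1.89% of all tested genes. Pools did not overlap for 5 on the higher and 2 on the lower side, near or under the 5.42% and 5.17% of all tested genes. Their median log2 fold change was -0.01, against -0.03 over all tested genes and -0.13 over the 9 genes above other than *Fgfr1op*. These counts rest on single pools, since without quercetin replicate 3 they were 4 higher and 12 lower of 76 tested, where 4.63% and 8.13% of all tested genes were higher and lower, and without quercetin replicate 1 they were 0 and 0.

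All 3 genes below an unadjusted p of 0.05 belonged to the 22 microtubule factors of the pole. With 2 higher and 1 lower, they were 9.1% and 4.5% of that list, beside 2.14% and 1.89% of all tested genes. *Nde1*, whose product ties dynein to its regulator LIS1, had 48.2, 42.0 and 47.4 CPM without quercetin and 72.9, 60 and 60.7 CPM with it, a log2 fold change of 0.49 with a standard error of 0.17. *Tpx2*, whose product activates Aurora A and promotes microtubule assembly near chromosomes, had 446, 438 and 428 CPM against 564.5, 603 and 504 CPM, a log2 fold change of 0.35 with a standard error of 0.13. Quercetin pools lay above all control pools for 4 of the 22, *Nde1*, *Tpx2* and *Ckap2* among them, beside 5.42% of all tested genes. They lay below all control pools for 0 of the 22, beside 5.17%. *Kansl1*, encoding a subunit of a histone acetyltransferase complex that also acts at spindle microtubules, had 13.1, 13.2 and 9.11 CPM against 6.01, 4.17 and 9.18 CPM, a log2 fold change of -0.87 with a standard error of 0.33, and its groups overlapped. The adjusted p of each was 0.988 (edgeR quasi-likelihood test, Benjamini-Hochberg method). *Ckap2*, encoding a microtubule-nucleating spindle protein, had the highest level per exon length of this list, at 136 CPM per kb, and a log2 fold change of 0.20 with a standard error of 0.13.

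The quercetin pools of relatives of *Tacc3* lay closer together. *Tacc1* had 13.0 ± 4.10 and 13.7 ± 3.18 CPM and *Tacc2* had 114 ± 17.9 and 104 ± 12.8 CPM in control and quercetin pools (SD, n = 3). The coefficient of variation among quercetin pools was 23.3% for *Tacc1* and 12.3% for *Tacc2*, beside the 74.1% of *Tacc3*.

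Of the γ-tubulin ring complex, 5 of 8 further genes were tested and 0 had an unadjusted p under 0.05. *Mzt1*, encoding a small adaptor of the complex, was the most abundant per kb and had a log2 fold change of 0.29 with a standard error of 0.18. *Tubgcp4* and *Tubgcp2*, encoding core subunits, had log2 fold changes of 0.35 (standard error 0.29) and -0.60 (standard error 0.58). Of the exon length of *Tubgcp4*, 26.1% overlaps genes on the opposite strand. The level of *Tubgcp2* was low, at 2.581, 2.885 and 3.15 CPM without quercetin and 1.127, 0.6581 and 3.884 CPM with it. Its quercetin replicates 1 and 2 lay below all controls and replicate 3 above them. Of augmin, 5 of 7 further genes were tested, again with 0 below that p. *Haus5* had a log2 fold change of 0.34 (standard error 0.23), but 56.5% of its exon length overlaps *Gm21982* on the same strand. *Haus4*, the most abundant of the list per kb, had 0.06 (standard error 0.16), and *Haus8* had -0.24 (standard error 0.47).

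Of the other pericentriolar scaffold genes, 8 of 11 were tested and 0 had an unadjusted p under 0.05. *Pcm1*, encoding the organizer of centriolar satellites and the most abundant of these per kb, had a log2 fold change of -0.24 (standard error 0.15). *Cep170* had 0.26 (standard error 0.17) and *Nin*, encoding the microtubule-anchoring protein ninein, had 0.31 (standard error 0.33). The control pools of *Nin* were at 70.8, 201 and 172 CPM and its quercetin pools at 168.5, 165 and 217 CPM. *Crocc*, which encodes the ciliary rootlet protein, had no count in any pool.

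Transcripts of genes that build centrioles were detected in these acentriolar cells, and all 19 genes of that list were tested. Of these 0 had an unadjusted p under 0.05, with *Cep97*, encoding a cap protein of centrioles, at a log2 fold change of 0.85 (standard error 0.44). Its level was low, at 1.795, 2.885 and 1.575 CPM without quercetin and 2.881, 2.413 and 6.003 CPM with it. Only quercetin replicate 3 lay above all controls. *Cetn3*, encoding centrin 3 and the most abundant per kb, had a log2 fold change of 0.34 (standard error 0.18). That of *Poc5*, encoding a centrin-binding protein, was 0.25 (standard error 0.19). All 9 genes of centriolar appendages were tested, also with 0. *Ttbk2*, encoding the kinase that starts cilium assembly, was at -0.34 (standard error 0.22) with 29.9% of its exon length overlapping *Cdan1* on the same strand, *Cep89* was at -0.50 (standard error 0.43), *Cntrl* was at -0.29 (standard error 0.24), and *Sclt1*, the most abundant per kb, was at 0.09 (standard error 0.19).

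**Figure D4:**
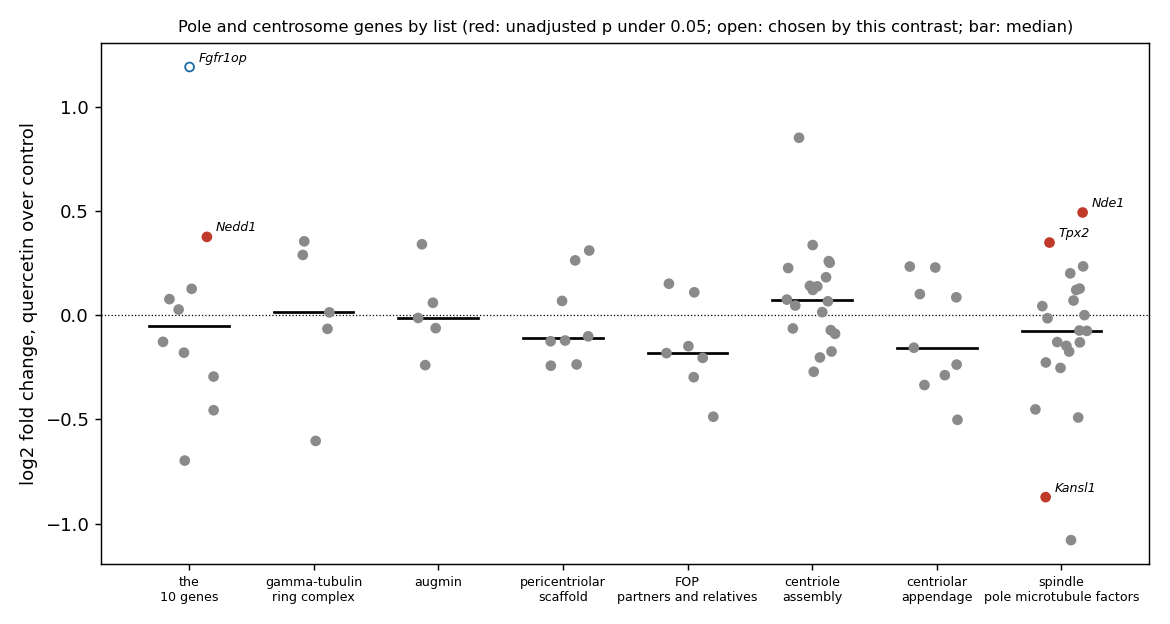
Log2 fold change, quercetin over control, of the 10 genes and of the tested genes in 7 further lists, 1 point per gene, with bars at the median of each list. Red points have an unadjusted p under 0.05 in edgeR's quasi-likelihood test and the open point is *Fgfr1op*, which was chosen by this contrast; *Nedd1*, *Nde1*, *Tpx2* and *Kansl1* are red, between -0.87 and 0.49.

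Over all tested genes, the 5 whose log2 CPM followed *Fgfr1op* most closely across the 6 pools were *Pole3*, *Otud6b*, *Smu1*, *H3f3b* and *Hsf2bp*, with Pearson correlations from 0.985 to 0.996. *Pole3*, the closest, had 2739, 2549 and 2966 counts without quercetin and 3281, 3661 and 3148 with it. Among the 10 genes, *Nedd1* was the closest to *Fgfr1op* with 0.937 and *Cdk5rap2* the farthest with -0.76. With 6 pools that share their libraries, and *Fgfr1op* chosen for its difference between groups, these are descriptions with no test.

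The labelled cell type was checked against marker genes. All 10 oocyte markers listed, among them *Gdf9*, *Bmp15* and *Zp3*, were found in every pool, with a summed level from 17220 to 21050 CPM in control and from 19230 to 20720 CPM in quercetin pools. Single markers were less even, with *Zp2* at 131 CPM in quercetin replicate 1 and 1560 CPM in control replicate 2. *Ooep* had a log2 fold change of -0.92 (unadjusted p = 0.0412, adjusted p = 0.988, edgeR quasi-likelihood test), the only 1 of the 10 with an unadjusted p under 0.05. Of 12 cumulus and granulosa markers, 4 (*Ptx3*, *Foxl2*, *Amh* and *Pgr*) had no count in any pool, and the sum of all 12 was 62.9 to 77.6 CPM in control and 78.9 to 84.6 CPM in quercetin pools, most of it from *Cyp19a1*. The sums of the groups did not overlap because of this gene, at 58.4 to 68.9 CPM in control and 73.1 to 75.9 CPM in quercetin pools. The other 11 markers summed to 4.45 to 11.2 CPM in control and 5.77 to 9.65 CPM in quercetin pools, which overlapped. The part of carried-over transcripts in the values of the pole genes was not tested.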

How the data were processed

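The authors made SMART-Seq libraries and deposited raw read counts per Ensembl gene for 6 pools, neither normalized nor pooled over replicates. The study reports alignment with Hisat2 to GRCm38.91, whereas the submitters' processing notes name TopHat2 2.0.6, CASAVA 1.8, mm10 and GRCm38, and the counting program and its settings for strand and shared reads are not given in the sources used here. Symbols and positions came from GENCODE release M21 on GRCm38, which matched 53360 of 53465 identifiers.

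Genes passing filterByExpr (minimum count 10) were scaled by TMM and tested with edgeR 4.0.16 (glmQLFit and glmQLFTest, R 4.3.3), adjusting over the 11842 genes tested by the Benjamini-Hochberg method. A gene was called, after the study's criteria, beyond a fold change of 2 at an adjusted p under 0.05. The fit was also run on simulated counts. The changes planted there were larger than those described here, so that run does not bear on differences of this size. Standard errors of log2 fold changes were obtained from the estimate and the F statistic, whose square root is their ratio. Permutation tests used log2(CPM + 1), and log2 CPM for correlations had a prior count of 2. Floors of 3 counts cover counting error only, since reads carry no molecular identifiers. With pools that may share cultures, p-values measure only the spread between these pools.

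All 10 genes are named. Of each further list, the 3 genes with the smallest unadjusted p and the most abundant per kb are named, besides relatives of the 10 and the 5 genes closest to *Fgfr1op* over the pools. *Crocc* and the marker genes without counts were named after their values were seen. The genes and lists were chosen with earlier results of these data known. Alternatives were DESeq2 1.42.0, the likelihood ratio test, other scalings, a weaker filter (at least 1 count), the replicate number as a block and leaving out each pool. The length of the principal transcript was added, and the fit without quercetin replicate 3 was singled out for closer description, after seeing the data. Python 3.11.15 with pandas 2.3.3, numpy 2.4.6, scipy 1.17.1 and matplotlib 3.10.9 was used.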

Additional observations from a re-analysis of the deposited data

How the results depend on the processing

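Over all tested genes, the count passing both criteria went from 0 to 3 without the filter on low counts, 12 with DESeq2 and 16 with edgeR's likelihood ratio test, and ran from 0 to 7 with each pool left out. Of the 9 genes other than *Fgfr1op*, 0 were past an adjusted p of 0.05 in any fit, leave-one-out fits included. *Fgfr1op* was chosen by this same contrast, so it is left out of this count. DESeq2's size factors, the weaker filter and DESeq2 each left 1 gene, in place of 2, without overlap of pools among the 9 others, and leaving out single pools gave 2 to 6. Of the 75 further pole and centrosome genes, those higher at an unadjusted p under 0.05 went from 2 to 1 with the likelihood ratio test, and with single pools left out the higher ones ran from 0 to 4 and the lower ones from 0 to 12.

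By library size only, the log2 fold changes of *Ckap5* and *Cep192* turned to -0.003 and -0.0648. With single pools left out, that of *Cep192* ran from -0.061 to 0.135, of *Tubg1* from -0.0124 to 0.25 and of *Haus6* from -0.57 to 0.0731. The causes were not tested. Whether same-numbered pools shared animals or culture days is not stated. Deviations from the group means correlated by 0.296, 0.101 and -0.03 between pools numbered 1, 2 and 3. Between control and quercetin pools of unlike number these correlations ran from -0.299 to 0.176. With the replicate block, the further pole genes higher at an unadjusted p under 0.05 fell from 2 to 1, and the count of adjusted calls stayed at 0. The 8 further genes that did not pass the filter on low counts were not compared at this depth.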
